A study of Mus musculus with 6 samples.

Results

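The 5 genes described here are the 4 tenascins of the mouse, Tnc, Tnr, Tnxb and Tnn, and Ptprz1, the gene of a receptor tyrosine phosphatase whose secreted splice form is phosphacan. They were found by symbol in the platform annotation of the array. Each had exactly 1 row with a single symbol, and none shared a row with another gene, so that the 5 genes stand for 5 of 19938 genes tested. The samples were lumbar spinal cords dissected from mouse embryos of strain SV129 at E15.5 (days of embryonic development), 3 carrying the genotype TNC -/- (knockout) and 3 wild type. Each sample was hybridised to 1 whole-transcript Affymetrix array. All values are log2 signals made by the authors with RMA, a method that brings the probe signals of all arrays to a common distribution before summarising them per gene. A difference of 1 unit is a doubling. Signals of different genes come from different probes, so the levels of the 5 genes are not set against each other here. For the same reason, the guide to background used below, which is drawn from other genes, is only rough.

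Tenascins are large multimeric glycoproteins of the extracellular matrix, built from epidermal growth factor-like repeats, fibronectin type III repeats and a fibrinogen-like globe. Tenascin-C is secreted by radial glia and young astrocytes of the developing nervous system, and tenascin-R by oligodendrocyte lineage cells and some neurons. Tenascin-X belongs to connective tissue, and tenascin-N, also called tenascin-W, to bone, kidney and other periphery. Phosphacan is a chondroitin sulfate proteoglycan of glial origin that binds tenascin-C and tenascin-R and neuronal adhesion molecules, and the membrane-bound form of the same gene is RPTP-beta. The single row of Ptprz1 does not tell the secreted from the membrane-bound form.

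Among the 5 genes, Tnc and Tnr had knockout arrays that did not overlap with the wild-type arrays, Tnc being lower and Tnr higher in knockout. Tnc averaged 61.8% of the wild-type signal. Tnr averaged 111% of it, with a gap of only 0.01 log2 units between the groups. Ptprz1 averaged 96.5% of wild type, and its groups overlapped throughout. Tnxb and Tnn lay near the upper end of the signals of genes that are not thought to be active in cord. None of the 5 passed limma's test with Benjamini-Hochberg adjustment over all genes (adjusted p = 1 for each), and 0% of all genes tested did. At an unadjusted p under 0.05, limma gave 1 of the 5, Tnc, against 1.70% of all genes. Groups that do not overlap were found for 2 of the 5 and for 5.82% of all genes (3.18% with every knockout array higher, 2.64% with every knockout array lower). A count of 2 among 5 is too small to call the family different from other genes.

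**Figure D1:**
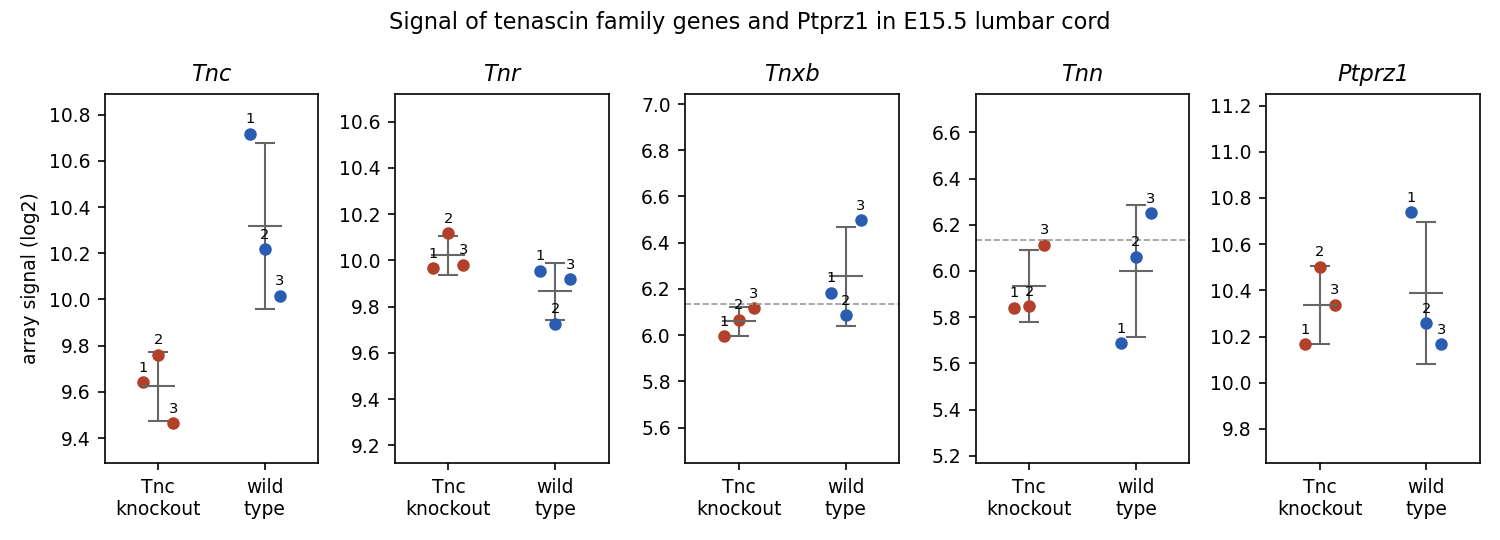
Log2 array signal (vertical axis, each panel spanning the same height) of the 5 genes in 3 Tnc knockout and 3 wild-type cords. Points are arrays numbered by replicate, bars are the mean and 1 SD, and the dashed line at 6.14 is the background guide. All 3 Tnc points of the knockout lie below the lowest wild-type point at 10.02, while the points of Ptprz1 overlap.

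Tnc, on chromosome 4, is the gene targeted in the knockout. It read 9.64, 9.76 and 9.47 in knockout replicates 1, 2 and 3, against 10.72, 10.22 and 10.02 in wild-type replicates 1, 2 and 3. Every knockout array was below every wild-type array, and the nearest pair of arrays stood 0.26 apart. The wild-type arrays themselves covered 0.70 log2 units, as much as the difference between the group means, while the knockout arrays covered 0.30. The means were 9.62 ± 0.15 in knockout and 10.32 ± 0.36 in wild type (SD, n = 3 each). They differed by -0.69 log2 units (standard error 0.17), with a 95% interval from -1.09 to -0.30, or 46.9% to 81.4% of wild type. The exact permutation test, run two-sided, gave p = 0.1, which is the lowest that 3 arrays against 3 can reach, and limma gave an unadjusted p of 0.00380. With a term for the sex of the embryo the unadjusted p was 0.0654.

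The drop in Tnc stands out in size more than in p. Of the 1161 genes whose groups did not overlap, 1 differed by more than Tnc. It was Hdhd3 at 0.71, a hydrolase-domain gene on the same chromosome as Tnc, looked up after its value was seen. By contrast, 14 genes had a smaller unadjusted p. Since the groups did not overlap, leaving out 1 array could not reverse the direction. The smallest difference in those refits, -0.49, came without wild-type replicate 1. Neither the part of Tnc removed in this line nor the exons that the row's probes read were known here. The signal left in knockout therefore does not measure intact tenascin-C transcript. In tissue RNA, fewer cells of a type and less RNA per cell cannot be told apart.

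The sequence just upstream of the annotated start of Tnc is shown because Tnc is the gene under study. Whether this sequence is kept in the knockout was not known here, and its part in the signals was not tested. It is the 250 bases before the start at chr4:64047016-64047265 on the minus strand of GRCm38.p6, from RefSeq, 5′ to 3′, and it is the reference strain's sequence, not that of these mice. Capitals mark the TATA box, spelled TATAAA, the GC box, spelled GGGCGG, and the core that SOX factors bind, spelled ACAAT, each searched on both strands.
Tnc: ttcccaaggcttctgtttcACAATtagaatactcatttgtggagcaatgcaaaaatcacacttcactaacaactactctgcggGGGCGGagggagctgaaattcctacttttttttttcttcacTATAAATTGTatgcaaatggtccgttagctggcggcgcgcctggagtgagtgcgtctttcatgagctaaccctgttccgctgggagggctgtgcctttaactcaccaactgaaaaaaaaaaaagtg

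The Tnc window held 1 TATA box whose first base lay 126 bases before the start, 1 GC box and 2 SOX cores, the second of which overlaps the TATA box. It held no TTGGC, the short site of nuclear factor I. Of 32851 mouse promoter windows of the same length, 12.4% held the TATA box, 32.7% the GC box, 27.7% the SOX core and 41.5% the nuclear factor I site. The corresponding window of Ptprz1 held 2 GC boxes and none of the other 3 motifs, and that of Tnr held none of the 4. These matches describe letters in 1 window, and no binding was measured.

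Tnr, the tenascin of oligodendrocytes and perineuronal matrix, lies on chromosome 1. It read 9.97, 10.12 and 9.98 in knockout replicates 1, 2 and 3, against 9.95, 9.73 and 9.92 in wild-type replicates 1, 2 and 3. The lowest knockout array and the highest wild-type array stood 0.01 apart. The means were 10.02 ± 0.08 in knockout and 9.87 ± 0.12 in wild type (SD, n = 3 each), and the difference of 0.15 had a 95% interval from -0.05 to 0.36. The exact two-sided permutation test again gave its smallest possible p of 0.1, and limma's unadjusted p was 0.120. The separation was lost, by 0.01 and 0.02 log2 units, when arrays were quantile normalized again or centred on their medians. The difference was 0.08 without wild-type replicate 2, which read lowest. With array weights, whose estimation did not converge, it was 0.31 with a 95% interval from 0.16 to 0.46, which leaves out 0 (unadjusted limma p 0.00108, adjusted p 0.0952). That fit rests mostly on 1 wild-type array: replicate 2, where Tnr read lowest, had a weight of 6.39 against 0.41 and 0.27 in replicates 1 and 3. The largest knockout weight, 2.14, went to replicate 2, where Tnr read highest.

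Oligodendrocyte lineage markers stood on the same side as Tnr. Of 9 measured, 8 were higher in knockout, against 46.4% of all genes, with a median difference of 0.14 against -0.01 for all genes. Every knockout array was higher for 3 of the 9, against 3.18% of all genes. Their mean log2 signal ran from 8.505 to 8.57 over the knockout arrays and from 8.39 to 8.40 over the wild-type arrays. Other cell types stood on that side too: 7 of 7 endothelial markers were higher with a median of 0.15, 2 of them without overlap. All 6 motor neuron markers were higher with a median of 0.10, but 0 of them without overlap. The motor neuron mean was 8.04 in wild-type replicate 1 and 8.49 in wild-type replicate 3, against 8.35 to 8.40 in the knockout arrays. General neuron markers had a median difference of 0.02, with 5 of 8 higher. The part of any of these cell types in the Tnr values was not tested.

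Ptprz1, on chromosome 6, read 10.17, 10.50 and 10.34 in knockout replicates 1, 2 and 3, against 10.74, 10.26 and 10.17 in wild-type replicates 1, 2 and 3. The highest array belonged to wild type, the lowest knockout and wild-type arrays read the same to 2 decimals, and the groups overlapped throughout. The means were 10.34 ± 0.17 in knockout and 10.39 ± 0.31 in wild type (SD, n = 3 each). The difference of -0.05 had a 95% interval from -0.41 to 0.31, which corresponds to 75.0% to 124% of wild type (exact two-sided permutation p = 0.9). Changes of Ptprz1 within those bounds are compatible with these values from 3 arrays a group. The bounds are not a limit of detection. The sign itself is not settled: leaving out wild-type replicate 1 gave 0.12, and leaving out knockout replicate 1 gave 0.03.

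Tnc and Ptprz1, both products of the radial glial and astrocyte lineage, ranked the wild-type arrays alike, with replicate 1 highest and replicate 3 lowest. That order held for 20.4% of all genes, so it is a common one. In knockout both were highest in replicate 2, but the lowest Tnc array was replicate 3 and the lowest Ptprz1 array was replicate 1. The mean log2 signal of radial glia and astrocyte markers did not follow. It ran from 10.45 to 10.57 in knockout and from 10.38 to 10.50 in wild type, and it was lowest in wild-type replicate 1. Taken singly, Fabp7 and Nfia ranked the wild-type arrays as Tnc and Ptprz1 did, and the other markers did not. The median difference of these 12 markers was 0.03, with 9 higher in knockout, and the groups did not overlap for 1 of the 12, the water channel Aqp4 at 0.26, against 5.82% of all genes.

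Tnxb and Tnn, the tenascins of connective tissue and bone, stood close to a guide to background. The guide was 6.14, the 95th percentile of mean signal over 1190 olfactory and vomeronasal receptor genes. The median of those receptor genes was 4.41, so Tnxb and Tnn read above most of them. Tnxb, on chromosome 17, read 6.00, 6.07 and 6.12 in knockout replicates 1, 2 and 3, against 6.18, 6.09 and 6.50 in wild-type replicates 1, 2 and 3. No knockout array and 2 wild-type arrays were above the guide. The means were 6.06 ± 0.06 in knockout and 6.26 ± 0.21 in wild type (SD, n = 3 each). The difference was -0.20 with a 95% interval from -0.45 to 0.06 (exact two-sided permutation p = 0.2), and it was -0.08 without wild-type replicate 3. The groups overlapped by 0.03 log2 units as deposited and were separated by 0.04 after renewed quantile normalization.

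Tnn, which lies near Tnr on chromosome 1 with 2 annotated coding gene models between them, read 5.84, 5.85 and 6.11 in knockout replicates 1, 2 and 3. It read 5.69, 6.06 and 6.25 in wild-type replicates 1, 2 and 3. Only wild-type replicate 3 was above the guide, and the knockout arrays lay inside the wild-type range. The means were 5.93 ± 0.16 in knockout and 6.00 ± 0.29 in wild type (SD, n = 3 each). The difference was -0.06 with a 95% interval from -0.41 to 0.28 (exact two-sided permutation p = 0.9), and 0.06 without wild-type replicate 3. In signals this close to the guide, a transcript at low level could not be told from none.

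Markers of the tissues where Tnxb and Tnn are made were mixed. Of 12 meningeal and fibroblast markers, 8 were lower in knockout, with a median of -0.13. Groups did not overlap for 1 of the 12, against 5.82% of all genes, and that gene, the collagen-binding proteoglycan gene Lum, had means under the guide. Their mean signal ran from 7.02 to 7.22 in knockout and from 7.12 to 7.33 in wild type. The 8 cartilage and tendon markers had 4 higher and 4 lower, and their mean was highest in wild-type replicate 3, at 7.20 against at most 7.04 in the other arrays, the same array in which Tnxb and Tnn were highest. Skeletal muscle and motor neuron markers also had their highest mean there, and it was the highest wild-type array for 45.4% of all genes. The part of such tissue in the values of Tnxb and Tnn was not tested.

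All 5 genes varied more among wild-type than among knockout arrays, as did 67.8% of all genes. The wild-type SD of Tnc lay above that of 97.2% of genes, that of Ptprz1 above 93.6% and that of Tnn above 91.4%. For Tnxb the share was 79.6% and for Tnr 49.3%. The wild-type array farthest from the wild-type mean was replicate 1 for Tnc, Ptprz1 and Tnn, replicate 2 for Tnr and replicate 3 for Tnxb.

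**Figure D2:**
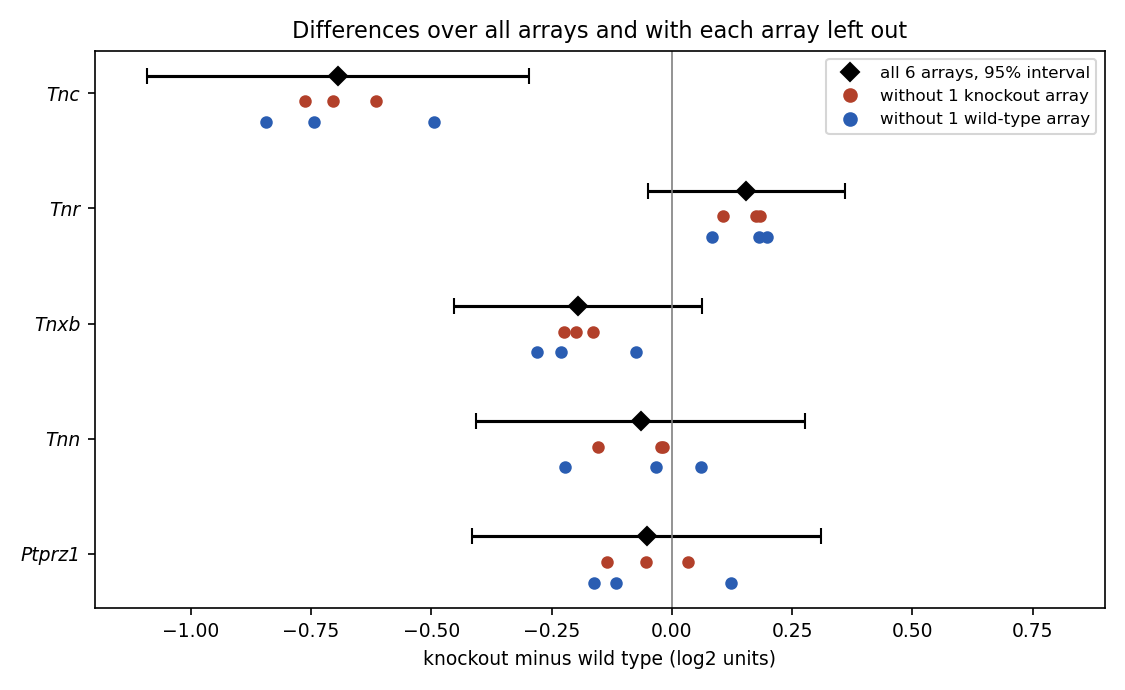
Knockout minus wild type in log2 units (horizontal axis) for each gene. Diamonds with bars are the difference over all 6 arrays with its 95% interval, and dots are the differences with 1 knockout or 1 wild-type array left out. Tnc stays between -0.84 and -0.49, while the dots of Tnn and Ptprz1 fall on both sides of 0.

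The arrays differed in more than genotype. Medians per array were between 6.96 and 7.10, and the first principal component, with 49.0% of the variance, had wild-type replicates 1 and 3 at its opposite ends. Xist read 5.44 and 5.38 in knockout replicates 1 and 3, and 11.68 in knockout replicate 2, against 11.60 to 12.25 in wild type. The mean of 3 Y-linked genes was 8.20 and 7.86 in those 2 knockout arrays and at most 4.48 elsewhere. Sex and genotype thus overlap in part. With a sex term, which rests on knockout replicate 2 against the wild-type arrays, the difference of Tnc was -0.56 with a 95% interval from -1.16 to 0.05 and an unadjusted limma p of 0.0654, so that it no longer reached an unadjusted p of 0.05. With that term the difference was 0.25 for Tnr, -0.19 for Tnxb, -0.15 for Tnn and 0.12 for Ptprz1. Hoxd10, a gene of lumbar cord, read between 12.12 and 12.45, and the mean of the neuron markers was at least 12.35 in every array. The 8 Hox genes on the list did not move together between wild-type replicates 1 and 3. Hoxc10 read 11.14 and 11.60 in them and Hoxd11 read 10.95 and 11.38. Hoxd10 and Hoxb1 were also lower in replicate 1. Hoxc6 read 8.67 and 8.33 and Hoxc9 read 10.51 and 10.25. Hoxa3 and Hoxa10 were also higher in replicate 1. Whether the level of dissection differed was not tested.

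The genes next to Tnc on chromosome 4 were read beside it. The 3 nearest measured genes on each side, in RefSeq order, were Tex48, Tnfsf15 and Tnfsf8 on one side and 8030451A03Rik, Pappa and Astn2 on the other. None of them passed limma's test (unadjusted p from 0.0553 to 0.829). Hdhd3, also on chromosome 4, is not among them, and genes farther from Tnc were not read as neighbours. The cytokine gene Tnfsf8, next to Tnc, differed by -0.20, but its means of 4.08 in knockout and 4.28 in wild type were both under the guide. The metalloproteinase gene Pappa differed by 0.10. Astn2, which encodes a neuronal membrane protein of glial-guided migration, read 10.34, 10.37 and 10.24 in knockout replicates 1, 2 and 3, against 10.23, 10.09 and 10.11 in wild-type replicates 1, 2 and 3. Its groups did not overlap, with a gap of 0.01, and its difference of 0.17 had a 95% interval from -0.0049 to 0.35.

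Genes related to tenascins and phosphacan were then followed in 6 lists. They are genes of proteins that bind, carry or cut them, of substrates and adaptors of RPTP-beta, and of receptor phosphatases related to Ptprz1. Of 61 genes on the lists, 60 were measured, 32 higher and 28 lower in knockout, with a median difference of 0.01 against -0.01 for all genes. None passed limma's adjusted test, and none had an unadjusted p under 0.05. The groups did not overlap for 2 of the 60, or 3.33%, against 5.82% of all genes.

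Receptors of tenascin-C, among them the integrin subunits Itgav, Itgb1, Itga8 and Itga9 and the receptor kinase Egfr, had 6 of 13 genes higher, a median of -0.01 and differences between -0.18 and 0.07. The smallest p values were those of the innate immune receptor Tlr4, at -0.18 with both means under the guide (4.51 in knockout, 4.69 in wild type), and of Itga9, at 0.07. Egfr, through which the growth factor-like repeats of tenascin-C can act, differed by -0.05. It read highest in wild-type replicate 1 at 8.26, as Tnc did. That was the highest wild-type array for 28.3% of all genes.

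Lecticans, link proteins and fibronectin, which tie tenascins into the matrix, had 7 of 9 genes higher and a median of 0.03. Bcan, the gene of the brain lectican brevican, read 10.15, 10.23 and 10.15 in knockout replicates 1, 2 and 3, against 10.01, 9.88 and 10.09 in wild-type replicates 1, 2 and 3. Its groups did not overlap, and its difference of 0.18 had a 95% interval from -0.01 to 0.36 and an unadjusted limma p of 0.0561. Acan, the cartilage and perineuronal lectican, differed by 0.10 at means under the guide. Ncan (0.01), Vcan (0.03) and Fn1 (-0.06) differed little.

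The list of ligands and neuronal partners of phosphacan and RPTP-beta also takes in Cntn4 and other relatives of Cntn1. It had 5 of 13 genes higher and a median of -0.01. Cntn4, a contactin that binds the related phosphatase Ptprg, had the widest difference of all 60 genes at -0.49, with a 95% interval from -1.003 to 0.03. It read 8.93, 8.41 and 8.15 in knockout replicates 1, 2 and 3, against 8.59, 9.19 and 9.17 in wild-type replicates 1, 2 and 3, and the groups overlapped because wild-type replicate 1 was below knockout replicate 1. The adhesion molecule Chl1 differed by -0.10. The growth factors Ptn and Mdk, which bind the chondroitin sulfate chains, differed by -0.05 and -0.06. Cntn1, the shared partner of tenascins and phosphacan, differed by 0.05.

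Substrates and adaptors of RPTP-beta had 6 of 11 genes higher and a median of 0.01. The receptor kinase gene Alk differed by 0.23, with a 95% interval from -0.02 to 0.48. The scaffold gene Magi1 had groups that did not overlap, all knockout arrays being lower, at a difference of -0.08. Proteases that cut tenascins had 6 of 8 genes higher and a median of 0.03, led by the gelatinase gene Mmp9 at 0.19 and the aggrecanase gene Adamts5 at 0.10. Among 7 receptor phosphatases related to Ptprz1 in structure, 3 were higher. Their differences stayed between -0.03 and 0.03, with Ptprf and Ptprm both at -0.03 and Ptprg, the closest relative of Ptprz1, at -0.01.

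**Figure D3:**
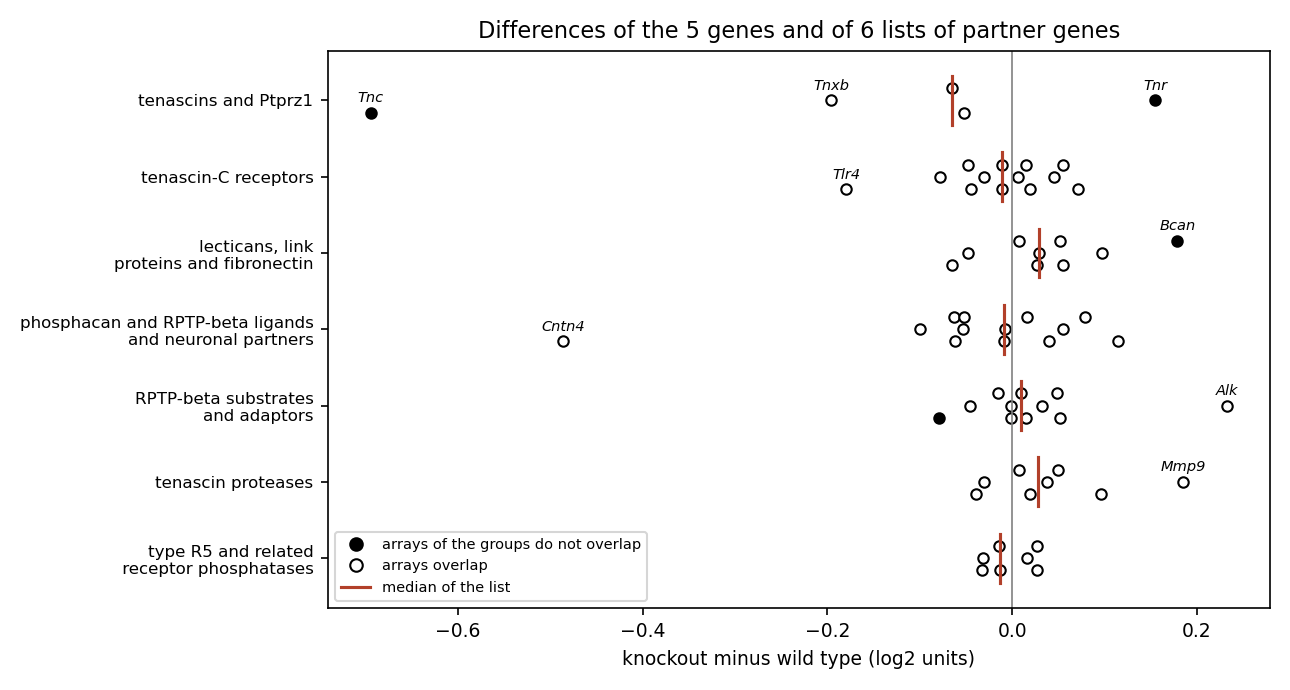
Knockout minus wild type in log2 units (horizontal axis) for the 5 genes and for 60 partner genes in 6 lists. Each dot is a gene, filled where knockout and wild-type arrays do not overlap, and the red line is the median of the list. The 6 list medians lie between -0.01 and 0.03, and outside the first row the dots farthest from 0 are Cntn4 at -0.49 and Alk at 0.23.

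The genes whose pattern over the 6 arrays was most like that of each of the 5 were sought among 9969 genes at or above the median level, by Pearson's r. The r values describe these 6 arrays only, and with so many genes searched over so few arrays, high values are readily found. Nearest to Tnc were Mrps30 (r = 0.999), Wsb1 (0.988) and Aktip (0.981), a mitochondrial ribosomal protein gene, a ubiquitin ligase adaptor gene and a trafficking gene. Their own differences were smaller than that of Tnc, at -0.13, -0.17 and -0.07. Nearest to Tnr were the bicarbonate transporter gene Slc4a10 (0.993), Phka1 (0.991) and the syndecan gene Sdc3 (0.984). Nearest to Ptprz1 were the BMP receptor gene Bmpr2 (0.991), Anapc1 (0.989) and Mboat2 (0.987). Nearest to Tnxb were Pigyl (0.972), Sfxn3 (0.956) and Ppp4r1 (0.950), and to Tnn Zfp661 (0.992), Pth1r (0.990) and Pskh1 (0.990). Values over 0.95 were reached by 53 genes for Ptprz1, 42 for Tnn, 20 for Tnr, 19 for Tnc and 3 for Tnxb. None of the 15 nearest genes is Tnc, Tnr, Ptprz1 or a gene of the partner lists. Tnxb, Tnn and the partner genes under the median level were not among the genes searched, so they could not appear.

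**Figure D4:**
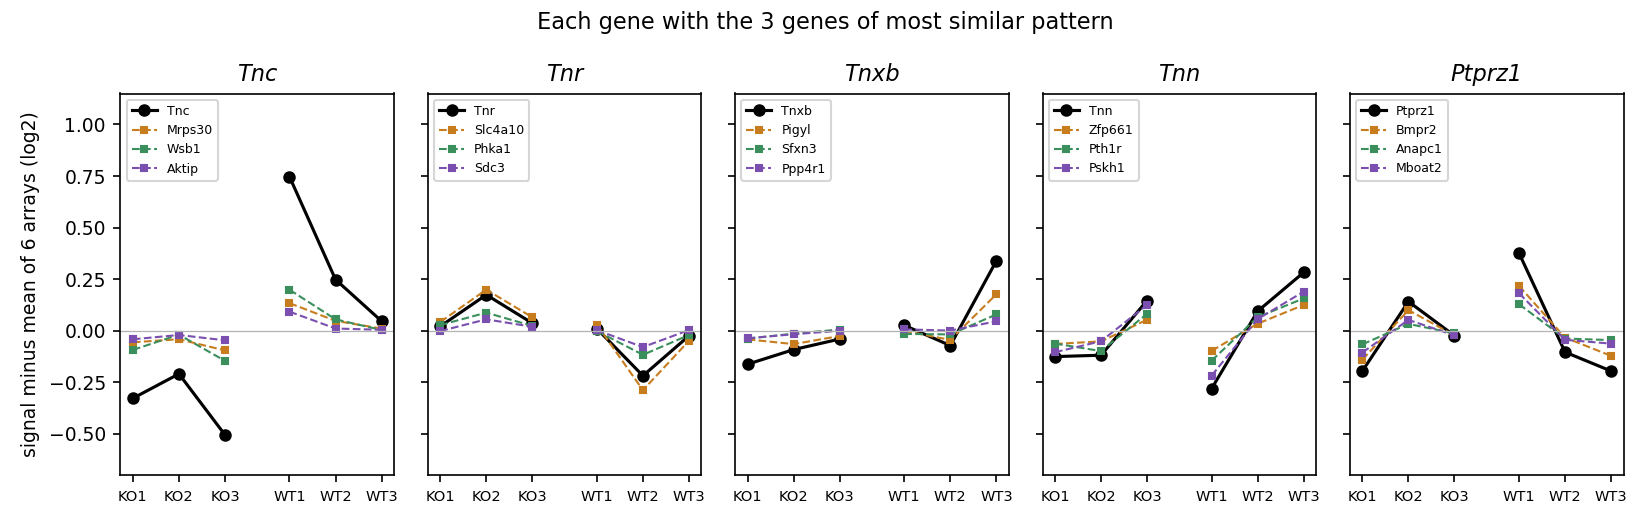
Log2 signal of each array minus the mean of the 6 arrays (vertical axis) for each of the 5 genes (black) and the 3 genes of highest r with it (coloured), with knockout arrays left of wild-type arrays. Lines join arrays of a group for reading only, since replicates have no order. The genes nearest to Tnc share its shape, but Wsb1, the one that moves most, spans 0.34 log2 units.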

How the data were processed

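The values are log2 signals per transcript cluster, which the authors made with RMA (no version given), per the submitters' processing notes. RMA equalises probe signals between arrays before summarising them, which can hide a global shift and compress small differences, while the summarised values of the arrays still differ slightly in their medians. The deposited table holds 35557 rows. The platform annotation gave a single symbol for 21789 of them, several for 1621 and none for 12147. Symbols were updated by gene ID against RefSeq (GRCm38.p6, 19856 of 19938 genes matched), and the row of highest mean stood for a gene. The values come with no named genome build, so gene order and promoter sequence come from RefSeq alone.

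Genes were compared with limma 3.58.1 in R 4.3.3 (lmFit and eBayes, group as the only term, all 6 arrays, 2-sided, Benjamini-Hochberg over all 19938 genes, threshold 0.05), tested on simulated data. Single values also had an exact permutation test over the 20 arrangements of the arrays (scipy 1.17.1). Genes named are the 5 genes, the 2 of smallest p and those without overlap in each partner list, 3 of most similar pattern each and 3 neighbours of Tnc on each side. Further list members and Hdhd3 were named with their values known. The genes and lists were chosen with earlier results of these data known. The samples are biological replicates per the labels, with no litter stated. The number of arrays limits the precision.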

Additional observations from a re-analysis of the deposited data

How the results depend on the processing

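Each difference was recomputed with each array left out, with the replicate number as a block, without dim genes, with an intensity trend and robust fit, after quantile normalization again, with arrays centred on their medians, with all rows of a gene or their mean, with a sex term and with array weights. None of the 5 genes passed an adjusted p of 0.05 in any of them, the lowest being 0.0726 for Tnc with array weights. The difference of Tnc stayed negative throughout (-0.84 to -0.49), that of Tnr positive (0.08 to 0.31) and that of Tnxb negative (-0.28 to -0.05). For Tnc and Tnr, whose groups did not overlap, leaving out 1 array could not change the sign. By construction, the 5 differences also keep their values with the block, the trend and robust fit, and all rows or their mean. With an array left out, Tnn ran from -0.22 to 0.06 (0.0603 without wild-type replicate 3) and Ptprz1 from -0.16 to 0.12. Ptprz1 was 0.12 with a sex term and 0.11 with array weights, whose estimation stopped before it converged and gave wild-type replicate 2 a weight of 6.39 and wild-type replicate 3 one of 0.27. Tnxb and Tnn fall under the median level, so the filter on dim genes left no value for them. Genes past the adjusted threshold numbered 0 to 4 with an array left out, the 4 arising without knockout replicate 2, and 0 otherwise. Genes without overlap numbered 2192 to 4684 with an array left out, where fewer arrays overlap less often, and 646 of the genes kept without dim ones. Whether replicate numbers pair the arrays was not tested. The deviations of same-numbered arrays correlated at 0.35, -0.07 and 0.45, and those of differently numbered arrays at -0.47 to 0.28. With the replicate block the differences keep their values, at -0.69 for Tnc, and 0 genes passed. The unadjusted limma p of Tnc lay between 0.000229 (replicate block) and 0.0654 (sex term, where the interval from -1.16 to 0.05 includes 0).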
